A study of Bos taurus with 12 samples.

Results

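Genes of fatty acid oxidation and lipid storage were followed in single blastomeres of bovine 2-cell embryos whose sister cells had known fates. Members were taken by gene symbol, from the acyl-CoA synthetases and carnitine palmitoyltransferases through the enzymes of beta-oxidation and electron transfer to the fatty acid binding proteins, perilipins, triglyceride synthases and lipases. The array's annotation carried 47 such genes on 66 probes, out of 15229 named genes. HADHA and ACAD9 had no symbol in that annotation and were not analysed here, and ECI1 and ECI2 were listed under older symbols and are given separately. BL blastomeres came from embryos whose sister cell reached the blastocyst stage by day 7 of culture in vitro, and 2CB blastomeres from embryos whose sister cell stopped at the 2-cell stage. The third class is named 8CB, although the labels describe its sister cells differently from that name, so only the name is used. The labels describe 3 pools of 15 cells a class, with amplified RNA, and do not say whether the same BL pools met both arrested classes. BL met 2CB on 6 two-colour arrays and 8CB on another 6, with the dyes exchanged on 3 arrays of each set. The labels name no agent or genotype for any of the 3 classes, each pool mixed cells of several embryos, and each class describes the fate of the sister rather than of the measured cell.

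Fatty acids enter oxidation as acyl-CoA, which carnitine carries into mitochondria. There a repeated cycle of dehydrogenation, hydration, a further dehydrogenation and thiolytic cleavage releases acetyl-CoA. Electrons of the first dehydrogenation pass to the respiratory chain through the electron transfer flavoproteins. Fatty acids that are not used are esterified to triglycerides and kept in droplets coated by perilipins, from which lipases release them again. Bovine oocytes and early embryos are known for their many lipid droplets, and most transcripts at the first cleavages are of maternal origin.

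The deposited values are log ratios, taken here as log2, and which class forms the numerator was not settled by the sources. They were therefore read in 2 ways. As deposited, the dye-swapped arrays of a replicate were averaged without a change of sign, which gives a positive or a negative side but no direction between BL and the arrested class. Turned by the labelled dyes, each ratio was taken as Cy5 over Cy3 and set to BL over the arrested class before averaging. A positive value then means higher in BL. This numerator is an assumption, and with Cy3 as the numerator every turned value would change its sign. Deviations of swapped arrays from their group means correlated positively in 5 of 6 replicates as deposited (0.426, 0.486 and 0.296 against 2CB, 0.408, 0.812 and -0.204 against 8CB), whereas the single row outside the numbered probes changed sign with the dye orientation (-0.376 to -0.077 with BL in Cy5, 0.16 to 0.344 with the arrested class in Cy5). Ratios carry no level, so the labelled cell type could not be checked against marker levels, and in pooled cells fewer cells of a type and less RNA per cell cannot be told apart. Unless another fit is named, errors below are limma standard errors from 1 fit to both comparisons, with 3 replicates each. They rest on the spread between pools and hybridisations in both comparisons together, and limma adjusts them with that of all genes. A gene therefore has the same error against 2CB and against 8CB, which is not the spread of 1 comparison alone.

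As deposited, none of the 47 genes passed an adjusted p of 0.05 in limma in either comparison (0% of all genes in both). Against 2CB, 7 of 47 (14.9%) had an unadjusted p under 0.05, beside 18% of all genes: FABP3, FABP1, FABP7, CPT1C, ACAA2 and ECHS1 on the positive side (6 of 47, all genes 8.54%) and ETFDH on the negative side (1 of 47, all genes 9.49%). Against 8CB, 3 of 47 (6.38%) did so, beside 11% of all genes: FABP3 on the positive side (1 of 47, all genes 5.61%) and ACAT2 and ACSL1 on the negative side (2 of 47, all genes 5.42%). Both shares lay below those of all genes. The median ratio of the members was 0.000352 against 2CB and -0.00565 against 8CB, with 0.0104 and 0.00444 over all genes. Means were positive for 24 members (51.1%) against 2CB and for 23 (48.9%) against 8CB, beside 54.2% and 52.6% of all genes. All 3 replicates lay on the same side for 21 members (44.7%) against 2CB, beside 45% of genes, and for 8 members (17%) against 8CB, beside 29.2%. No member reached 1.5-fold in either comparison, beside 2.32% of all genes against 2CB and 0.624% against 8CB. When the 12 arrays were entered singly with a dye coefficient and the replicate as a random block, again 0 of 47 members passed an adjusted p of 0.05, while 6.34% of all genes did against 2CB and 1.82% against 8CB.

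**Figure D1:**
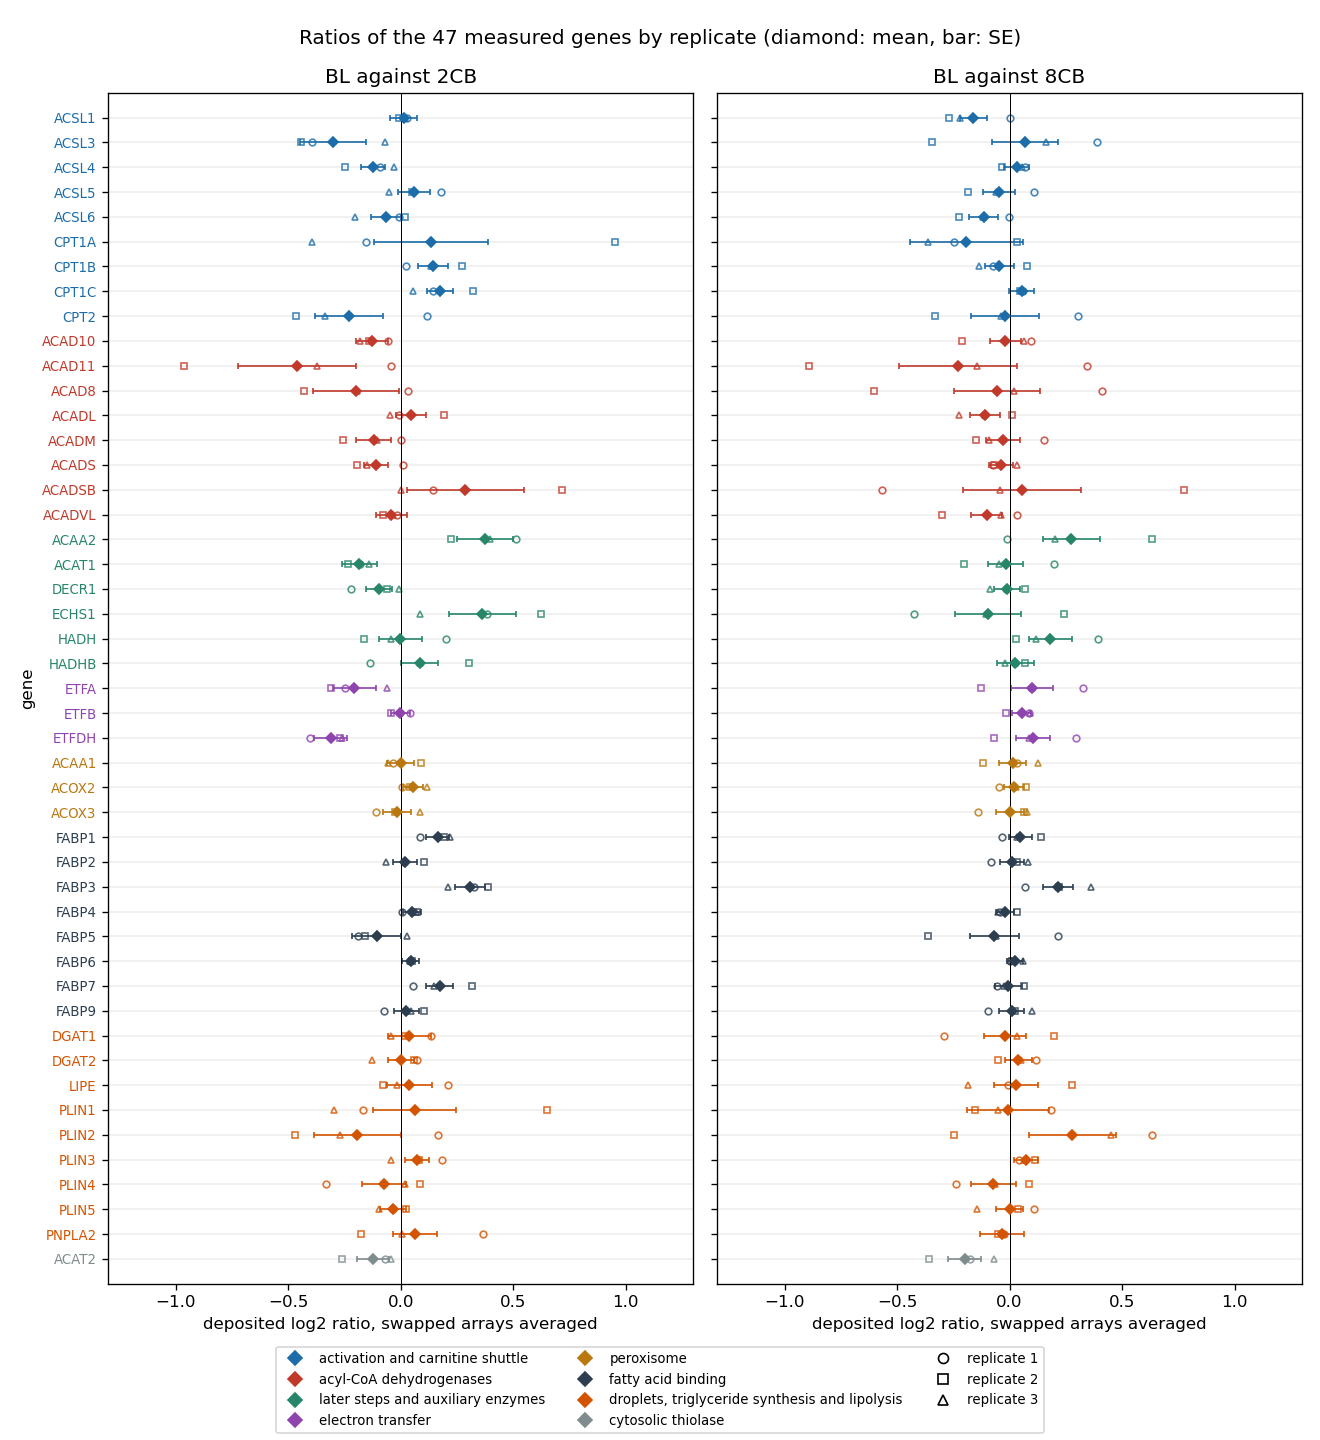
Deposited log2 ratios of the 47 genes (rows, coloured by role), against 2CB on the left and against 8CB on the right, with open symbols for replicates 1 to 3, diamonds for means and bars for standard errors. The means lie between -0.46 and 0.38 against 2CB and between -0.23 and 0.28 against 8CB, with no common side.

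Genes of activation and the carnitine shuttle, which commit fatty acids to mitochondria, held 9 members and spread over both sides. CPT1A, the liver form of the outer-membrane transferase that limits entry, had ratios of -0.16, 0.95 and -0.39 in replicates 1 to 3 against 2CB and of -0.25, 0.03 and -0.36 against 8CB. The means of 0.13 ± 0.25 (adjusted p = 0.807) and -0.19 ± 0.25 (adjusted p = 0.907) were smaller than the error of the common fit. That error joins unequal spreads, with an SD over replicates of 0.72 against 2CB and 0.20 against 8CB. The high replicate against 2CB rested on 1 array. On that array, with 2CB in Cy5, CPT1A read 2.06, while on the other 11 arrays it lay between -0.59 and 0.18. CPT1C, the form known from neurons in mammals, had 0.14, 0.32 and 0.06 against 2CB and 0.06, 0.05 and 0.06 against 8CB. All 6 of its ratios were positive, with means of 0.17 ± 0.06 (adjusted p = 0.211) and 0.05 ± 0.06 (adjusted p = 0.86). Against 8CB these averages joined arrays of opposite sign, 0.16, 0.16 and 0.22 with 8CB in Cy5 and -0.05, -0.06 and -0.11 with BL in Cy5. When turned by the labelled dyes, the means of CPT1C were -0.105 ± 0.04 (adjusted p = 0.149) and -0.13 ± 0.04 (adjusted p = 0.128). CPT2, the inner-membrane transferase that regenerates acyl-CoA, had 0.12, -0.47 and -0.33 against 2CB and 0.30, -0.33 and -0.04 against 8CB, with means of -0.23 ± 0.15 (adjusted p = 0.463) and -0.02 ± 0.15 (adjusted p = 0.99). Its replicate 1 lay apart from the other two on the positive side in both comparisons. ACSL1, a synthetase of long-chain acyl-CoA, stayed near 0 against 2CB (0.03, -0.01 and 0.02; 0.01 ± 0.06, adjusted p = 0.927) and had 0.002, -0.27 and -0.22 against 8CB, with a mean of -0.16 ± 0.06 (adjusted p = 0.405). The other 5 members, ACSL3 to ACSL6 and CPT1B, had no unadjusted p under 0.05, with means from -0.30 (ACSL3) to 0.14 (CPT1B) against 2CB and from -0.12 (ACSL6) to 0.07 (ACSL3) against 8CB.

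Acyl-CoA dehydrogenases catalyse the first step of each cycle, and 8 genes of this family were measured. They were grouped by symbol, and not all 8 serve that cycle, as with ACADSB below. As deposited, none had an unadjusted p under 0.05 in either comparison. Their means lay on the negative side for 6 of 8 against 2CB and for 7 of 8 against 8CB, with medians of -0.12 and -0.05. When turned by the labelled dyes, 5 of 8 were positive in each comparison, with medians of 0.05 and 0.02. ACADM, the medium-chain enzyme, had 0.000045, -0.26 and -0.11 against 2CB and 0.15, -0.15 and -0.09 against 8CB, with means of -0.12 ± 0.08 (adjusted p = 0.448) and -0.03 ± 0.08 (adjusted p = 0.967). ACADVL, which starts on very long chains, had -0.02, -0.08 and -0.03 against 2CB and 0.03, -0.30 and -0.04 against 8CB, with means of -0.04 ± 0.07 (adjusted p = 0.771) and -0.10 ± 0.07 (adjusted p = 0.713). Neither passed the adjusted threshold. ACAD11 and ACADSB were the most variable of this role. ACAD11 had -0.04, -0.96 and -0.37 against 2CB and 0.35, -0.89 and -0.15 against 8CB. ACADSB, which acts on short branched chains from isoleucine, had 0.14, 0.72 and 0.002 against 2CB and -0.57, 0.77 and -0.04 against 8CB. For both genes the value of replicate 2 was the farthest from 0 in each comparison, on opposite sides for the 2 genes. The others, ACAD8, ACAD10, ACADL and ACADS, had means from -0.20 to 0.05 against 2CB and from -0.11 to -0.02 against 8CB.

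Of the 6 enzymes of the later steps, ACAA2 and ECHS1 had unadjusted p-values under 0.05 against 2CB. ACAA2, the mitochondrial thiolase that cleaves off acetyl-CoA, had 0.51, 0.22 and 0.39 against 2CB, with a mean of 0.38 ± 0.125 (adjusted p = 0.212). Against 8CB it had -0.01, 0.63 and 0.20, with a mean of 0.28 ± 0.125 (adjusted p = 0.512). These averages join arrays of opposite sign, as described with the labelled dyes further on. ECHS1, the hydratase of the second step, had 0.38, 0.62 and 0.09 against 2CB (0.36 ± 0.15, adjusted p = 0.275) and -0.42, 0.24 and -0.10 against 8CB (-0.10 ± 0.15, adjusted p = 0.926). All 3 ratios of ECHS1 were positive against 2CB, and the signs were mixed against 8CB. HADHB, the subunit of the mitochondrial trifunctional protein with thiolase activity, had -0.14, 0.30 and 0.08 against 2CB and 0.03, 0.07 and -0.02 against 8CB, with means of 0.08 ± 0.08 (adjusted p = 0.621) and 0.02 ± 0.08 (adjusted p = 0.98). HADH, ACAT1 and DECR1, which act as hydroxyacyl-CoA dehydrogenase, acetoacetyl-CoA thiolase and dienoyl-CoA reductase, had means of -0.003, -0.19 and -0.10 against 2CB and of 0.18, -0.02 and -0.01 against 8CB. ECI1 and ECI2, the isomerases for unsaturated chains, had means of 0.01 and 0.06 against 2CB and of 0.03 and 0.05 against 8CB once symbols were updated, and neither had an unadjusted p under 0.05.

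The 3 genes of electron transfer had a median difference between the comparisons of -0.30 as deposited and of 0.03 when turned by the labelled dyes. ETFDH hands electrons from acyl-CoA dehydrogenases to ubiquinone. It had -0.40, -0.27 and -0.26 against 2CB, with a mean of -0.31 ± 0.08 (adjusted p = 0.14), and was negative on all 6 arrays, as 4 members (8.51%, all genes 15%) kept one sign there. Against 8CB it had 0.30, -0.07 and 0.09, with a mean of 0.10 ± 0.08 (adjusted p = 0.733). The 3 ratios against 2CB lay below all 3 against 8CB. ETFA, the alpha subunit of the flavoprotein that feeds ETFDH, had -0.25, -0.31 and -0.06 against 2CB and 0.32, -0.13 and 0.10 against 8CB, with means of -0.21 ± 0.09 (adjusted p = 0.315) and 0.10 ± 0.09 (adjusted p = 0.829). ETFB, its partner subunit, had 0.04, -0.04 and -0.0056 against 2CB and 0.09, -0.02 and 0.09 against 8CB, with means of -0.0018 ± 0.04 (adjusted p = 0.987) and 0.05 ± 0.04 (adjusted p = 0.77). The 2 probes of ETFA read -0.36 and -0.05 against 2CB, and the 4 probes of ETFB lay between -0.07 and 0.10, on both sides of 0.

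The 3 peroxisomal members, the acyl-CoA oxidases ACOX2 and ACOX3 and the thiolase ACAA1, stayed between -0.02 and 0.05 against 2CB and between 0.0013 and 0.02 against 8CB, with no unadjusted p under 0.05. ACAT2, the cytosolic acetoacetyl-CoA thiolase, is known for feeding sterol synthesis. It had -0.17, -0.36 and -0.07 against 8CB (-0.20 ± 0.07, adjusted p = 0.394) and -0.07, -0.26 and -0.04 against 2CB (-0.125 ± 0.07, adjusted p = 0.409). All 6 ratios of ACAT2 were negative, while its means when turned were 0.08 against 2CB and 0.04 against 8CB.

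The fatty acid binding proteins carry fatty acids through the cytosol, and as deposited 7 of 8 had positive means against 2CB and 5 of 8 against 8CB. When turned, 3 of 8 were positive in each comparison, with medians of -0.03 and -0.04. FABP3, the form abundant in heart muscle, had 0.32, 0.39 and 0.21 against 2CB and 0.07, 0.22 and 0.36 against 8CB. All 6 ratios were positive. The means were 0.31 ± 0.07 (adjusted p = 0.127) and 0.22 ± 0.07 (adjusted p = 0.323), the smallest p-values among the members, at rank 459 and 859 of 15229 genes. FABP3 was positive on all 6 arrays against 8CB, the single member with one sign there (2.13%, all genes 7.12%), and on 5 of 6 against 2CB, where the remaining one read -0.04. FABP1, the liver form, had 0.09, 0.19 and 0.22 against 2CB (0.17 ± 0.05, adjusted p = 0.195) and -0.03, 0.14 and 0.04 against 8CB (0.05 ± 0.05, adjusted p = 0.86). FABP7, the brain form, had 0.06, 0.32 and 0.15 against 2CB (0.17 ± 0.06, adjusted p = 0.225) and -0.06, 0.06 and -0.02 against 8CB (-0.0056 ± 0.06, adjusted p = 0.994). Both were positive in all 3 replicates against 2CB and mixed against 8CB. FABP5, the epidermal form, had -0.19, -0.16 and 0.03 against 2CB and 0.22, -0.36 and -0.06 against 8CB, with means of -0.11 ± 0.11 (adjusted p = 0.637) and -0.07 ± 0.11 (adjusted p = 0.932). The remaining FABP2, FABP4, FABP6 and FABP9 lay between 0.02 and 0.05 against 2CB and between -0.02 and 0.02 against 8CB.

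The 9 droplet genes had no unadjusted p under 0.05 in either comparison. PLIN2, the perilipin that coats droplets in most cell types, had 0.16, -0.47 and -0.27 against 2CB and 0.63, -0.25 and 0.45 against 8CB, with means of -0.19 ± 0.19 (adjusted p = 0.627) and 0.28 ± 0.19 (adjusted p = 0.718). Its ratios ran over a wide range within each comparison, and in both, replicate 1 was the highest and replicate 2 the lowest. DGAT1 catalyses the last step of triglyceride synthesis. It had 0.14, 0.02 and -0.04 against 2CB and -0.29, 0.20 and 0.03 against 8CB, with means of 0.04 ± 0.10 (adjusted p = 0.867) and -0.02 ± 0.10 (adjusted p = 0.986). DGAT2, the other enzyme of that step, had 0.07, 0.06 and -0.13 against 2CB and 0.12, -0.05 and 0.05 against 8CB, with means of 0.00035 ± 0.06 (adjusted p = 0.998) and 0.04 ± 0.06 (adjusted p = 0.923). Neither synthase passed the adjusted threshold. PNPLA2, the lipase that starts triglyceride breakdown, had 0.37, -0.18 and 0.0042 against 2CB and -0.03, -0.05 and -0.03 against 8CB, with means of 0.06 ± 0.10 (adjusted p = 0.764) and -0.03 ± 0.10 (adjusted p = 0.972). LIPE, the hormone-sensitive lipase that follows it, had 0.21, -0.08 and -0.02 against 2CB and -0.0084, 0.28 and -0.19 against 8CB, with means of 0.04 ± 0.10 (adjusted p = 0.869) and 0.03 ± 0.10 (adjusted p = 0.98). PLIN1, the perilipin of adipocytes, shared the single high array of CPT1A and read 1.60 there, against -0.42 to 0.22 on the other 11 arrays. PLIN3, PLIN4 and PLIN5 had means from -0.07 to 0.07 in both comparisons.

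Of the members, 14 had several probes, and these lay on opposite sides for 5 genes against 2CB and for 7 against 8CB. ACAA2, ACAT1 and ETFB were among them in both comparisons. Replicates 1 and 2 had opposite signs against 8CB for 36 of 47 members (76.6%), beside 56.1% of all genes. For replicates 1 and 3 this held for 19 members (40.4%, all genes 43.1%) and for replicates 2 and 3 for 23 (48.9%, all genes 42.4%). Against 2CB the shares were 40.4%, 38.3% and 31.9% of members, beside 39.1%, 40.3% and 30.5% of genes for the same pairs of replicates. This pattern was chosen after the values were seen.

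With the ratios turned by the labelled dyes, 4 of 47 members (8.51%) passed an adjusted p of 0.05 in limma against 2CB, beside 5.96% of all genes, and 2 of 47 (4.26%) against 8CB, beside 2.94% of all genes. With Cy5 assumed as the numerator, ACAA2 was higher in BL in both comparisons and HADHB lower in both. ACSL4 and LIPE were then higher in BL than in 2CB. Of all genes, 3.95% were higher and 2% lower in BL than in 2CB, and 2.26% higher and 0.676% lower in BL than in 8CB. ACAA2 had 1.15, 1.02 and 0.95 for BL over 2CB, a mean of 1.04 ± 0.11 or 2.05-fold (adjusted p = 0.0114), and 1.21, 0.97 and 0.58 for BL over 8CB, a mean of 0.92 ± 0.11 or 1.89-fold (adjusted p = 0.0217). It was the single member past 1.5-fold under this reading (2.13%), beside 0.775% of all genes against 2CB and 0.44% against 8CB. HADHB had -0.31, -0.24 and -0.42 for BL over 2CB (-0.32 ± 0.04, adjusted p = 0.0141) and -0.24, -0.20 and -0.21 for BL over 8CB (-0.22 ± 0.04, adjusted p = 0.049). LIPE had 0.24, 0.28 and 0.18 for BL over 2CB (0.23 ± 0.04, adjusted p = 0.0266) and 0.14, 0.03 and 0.09 for BL over 8CB (0.09 ± 0.04, adjusted p = 0.238). ACSL4, a synthetase with a preference for arachidonic acid, had 0.16, 0.11 and 0.19 for BL over 2CB (0.15 ± 0.03, adjusted p = 0.04995) and 0.07, 0.09 and 0.11 for BL over 8CB (0.09 ± 0.03, adjusted p = 0.175).

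Most of these calls were lost when a replicate was left out, which also leaves fewer samples. Without replicate 1 or without replicate 2, no member and no gene of the array was called in either comparison. Without replicate 3, 222 of 15229 genes were called against 2CB and 771 against 8CB. Of the 47 members, ACAA2 alone was among them against 2CB (adjusted p = 0.0233). Against 8CB, 2 members were, ACAA2 (adjusted p = 0.0192) and ACADM (-0.26 ± 0.05, adjusted p = 0.0464), but not HADHB. The ratio of ACAA2 stayed between 0.98 and 1.08 against 2CB and between 0.77 and 1.09 against 8CB in these 3 fits. Against 2CB, the ratio of HADHB lay between -0.37 and -0.28, that of LIPE between 0.21 and 0.26 and that of ACSL4 between 0.14 and 0.17. At an unadjusted p under 0.05 there were 15 members (31.9%, all genes 28.3%) against 2CB and 11 (23.4%, all genes 24%) against 8CB, so the counts lay near the shares of all genes.

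**Figure D2:**
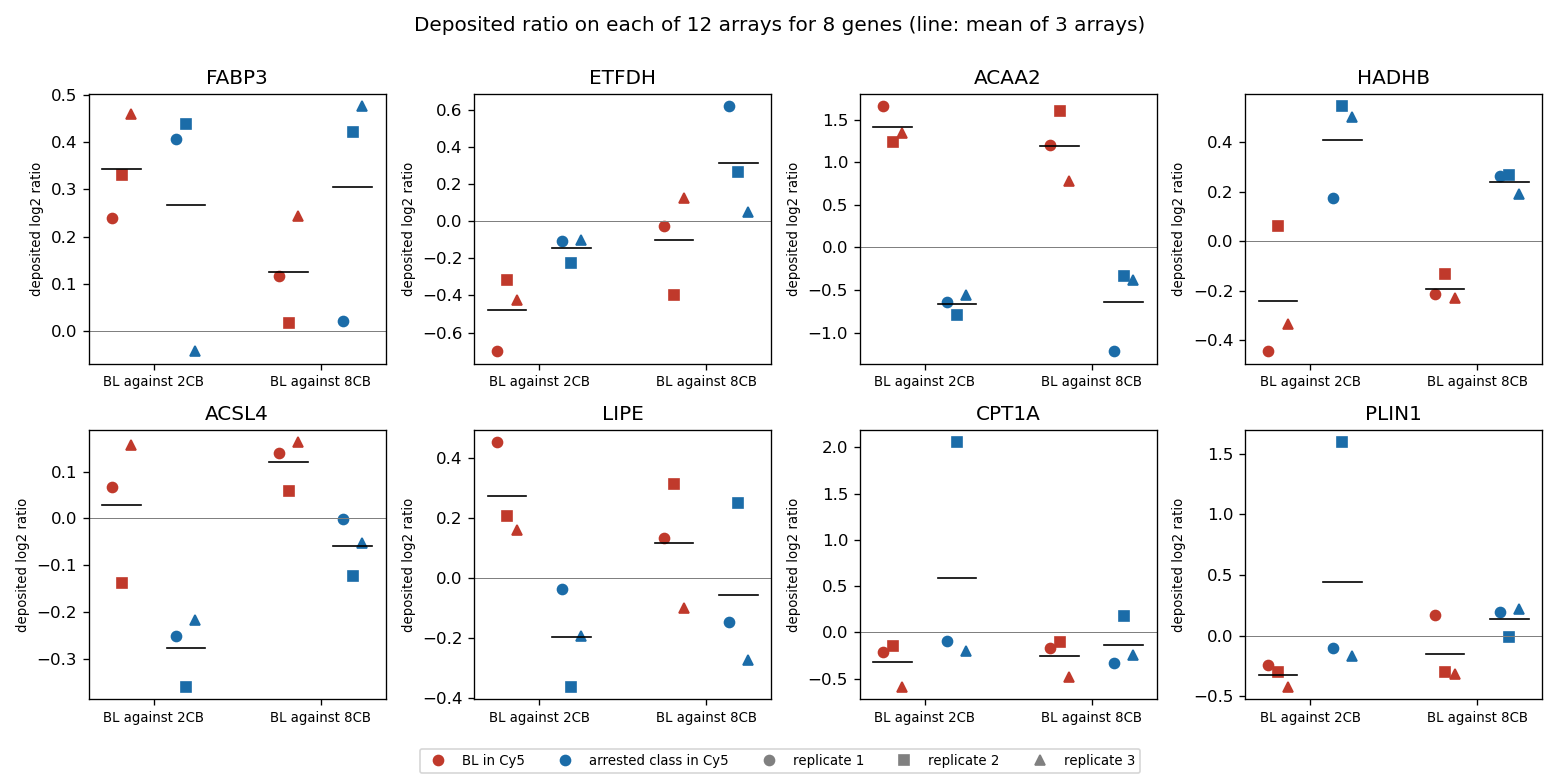
Deposited log2 ratio of 8 genes on each of the 12 arrays, with BL in Cy5 in red and the arrested class in Cy5 in blue, symbols for replicates and lines for means of 3 arrays. ACAA2 is above 0 on every red and below 0 on every blue array, FABP3 is mostly above 0 in both colours, and CPT1A and PLIN1 have a single array above 1.5.

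The separate arrays show what each reading rests on. ACAA2 read 1.66, 1.24 and 1.35 with BL in Cy5 and -0.63, -0.80 and -0.56 with 2CB in Cy5, and 1.20, 1.60 and 0.78 with BL in Cy5 and -1.22, -0.33 and -0.38 with 8CB in Cy5. Its sign thus followed the dye orientation on all 12 arrays, as it did for 1 of 47 members (2.13%) and 5.68% of all genes. Of its 3 probes, 2 carried this pattern, at 2.35 and 2.30 with BL in Cy5 and -0.94 and -1.10 with 2CB in Cy5, while the remaining probe read -0.40 and 0.06. HADHB read -0.45, 0.06 and -0.34 with BL in Cy5 and 0.18, 0.55 and 0.50 with 2CB in Cy5, and -0.21, -0.13 and -0.23 with BL in Cy5 and 0.27, 0.27 and 0.19 with 8CB in Cy5. As deposited, these opposite values cancelled to the means near 0 given above. FABP3, positive as deposited, averaged 0.04 ± 0.08 against 2CB and -0.09 ± 0.08 against 8CB when turned by the labelled dyes, with no adjusted p under 0.05. ETFDH, at -0.31 against 2CB and 0.10 against 8CB as deposited, averaged -0.17 ± 0.08 (adjusted p = 0.224) and -0.21 ± 0.08 (adjusted p = 0.19) when turned. A dye effect would cancel in one reading and remain in the other, so a dye effect and a difference between classes cannot be told apart here.

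**Figure D3:**
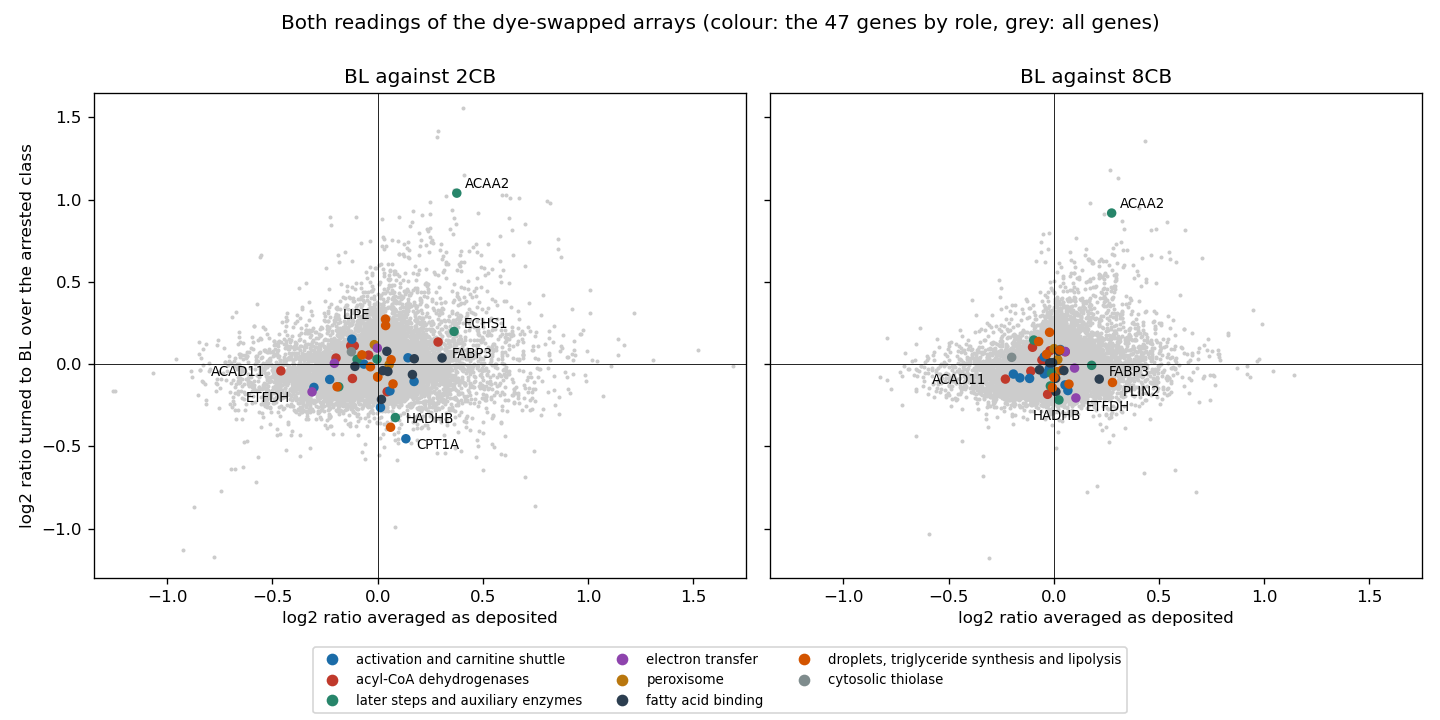
Mean log2 ratio as deposited (horizontal) against the ratio turned to BL over the arrested class (vertical), against 2CB on the left and 8CB on the right, with the 47 genes coloured by role and all 15229 genes in grey. ACAA2, at 1.04 and 0.92 on the vertical axis, is the one member apart from the rest, and the others stay within 0.5 of 0 on both axes.

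2CB and 8CB were never hybridised together, so their difference was taken indirectly: the BL and 2CB ratio less the BL and 8CB ratio. As deposited, no member passed an adjusted p of 0.05 (all genes 0%), and ETFDH alone (2.13% of members, 4.24% of all genes) had an unadjusted p under 0.05, with a difference of -0.42 ± 0.11 (adjusted p = 0.932, rank 93 of 15229). The labels do not say that replicate numbers pair the comparisons, and the pairing was taken from these same ratios. With the replicate number as a block, 10 members (21.3%) had an unadjusted p under 0.05, beside 9.4% of all genes. None passed after adjustment, and their adjusted p ran from 0.46 to 0.53. Of these, PLIN2 (-0.47 ± 0.11), ETFDH (-0.42 ± 0.11), ETFA (-0.30 ± 0.11), ACAD11 (-0.23 ± 0.08), CPT2 (-0.21 ± 0.06) and HADH (-0.18 ± 0.05) were lower against 2CB in all 3 replicate pairs. ECHS1 (0.46 ± 0.14), CPT1B (0.19 ± 0.06), FABP7 (0.18 ± 0.06) and ACADL (0.15 ± 0.06) were higher in all 3. These 10 were picked by a test on the same 3 differences, so their shared side adds nothing to it. Of all members, 20 of 47 (42.6%) had the 3 differences on one side, beside 33.7% of all genes. Turned by the labelled dyes, no member passed an adjusted p of 0.05, and LIPE alone had an unadjusted p under 0.05 (0.15 ± 0.06, adjusted p = 0.999), which 0.972% of all genes had (all genes 0% after adjustment).

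**Figure D4:**
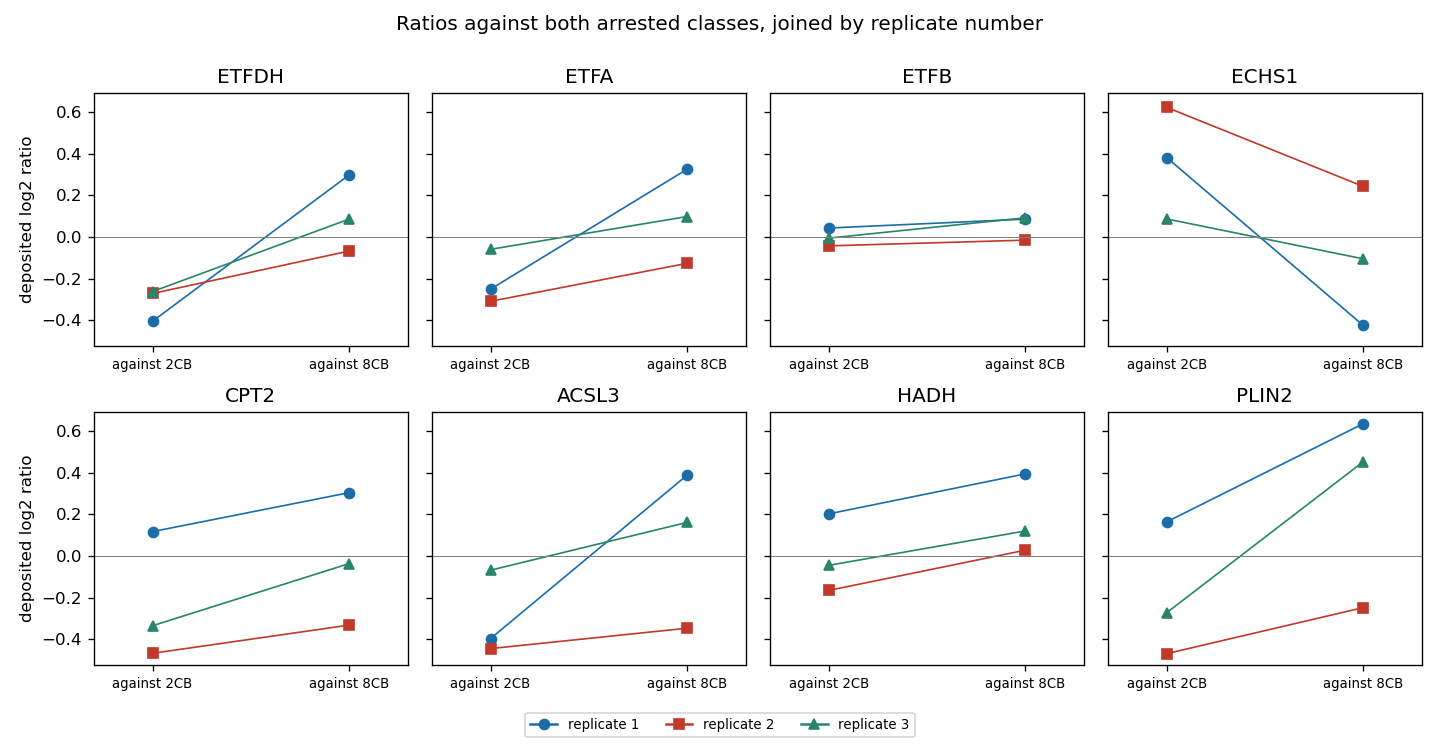
Deposited log2 ratios of 8 genes against 2CB (left of each panel) and against 8CB (right), with lines that join equal replicate numbers. For ETFDH, ETFA, ETFB, CPT2, ACSL3, HADH and PLIN2 each line runs upward, and for ECHS1 each runs downward. The 8 genes are a selection and do not show the balance of sides. Left out are ACADL, ACAT2, ACSL1, ACSL5, CPT1B, FABP1, FABP4 and FABP7, which ran downward in each pair. ACAD11, ACADM, ACAT1 and ACSL4, which ran upward in each pair, are also left out. All 3 pairs lay on one side for 42.6% of the 47 members and 33.7% of all genes.

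Further genes of lipid metabolism, 55 measured of 59 listed, covered uptake and transport, ketone and peroxisomal enzymes, regulators, fatty acid synthesis and droplet assembly. As deposited none passed an adjusted p of 0.05. An unadjusted p under 0.05 was found for 3 positive and 5 negative ones against 2CB (14.5%, all genes 18%) and for 1 positive and 2 negative ones against 8CB (5.45%, all genes 11%). Turned by the labelled dyes, 4 passed the adjusted threshold against 2CB (7.27%, all genes 5.96%) and 1 against 8CB (1.82%, all genes 2.94%). OXCT1, which activates ketone bodies, was lower in BL than in 2CB (-0.24 ± 0.05, adjusted p = 0.0387) and than in 8CB (-0.25 ± 0.05, adjusted p = 0.0464). The droplet proteins CIDEB (0.23 ± 0.05, adjusted p = 0.0444) and CIDEC (0.15 ± 0.03, adjusted p = 0.0461) and the monoglyceride lipase MGLL (0.18 ± 0.04, adjusted p = 0.0401) were higher in BL than in 2CB. Of the 10 markers of oocytes and early embryos measured, 6 were positive and 1 negative at an unadjusted p under 0.05 against 2CB as deposited (all genes 8.54% and 9.49%), with a median of 0.37, and the median was 0.195 against 8CB. With the ratios turned, MOS alone of the 10 had an unadjusted p under 0.05 in each comparison, and the medians were 0.13 and 0.08. The medians of 15 cumulus and granulosa markers were -0.03 in both comparisons and those of 6 sperm markers -0.02 and 0.05. The part of these markers in the members' ratios was not tested.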

How the data were processed

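Amplified RNA of pooled blastomeres was hybridised on 12 two-colour arrays. The authors deposited log2 ratios, 1 per probe and array. Per the submitters' processing notes limma was used; the base of the logarithm is not stated there, and base 2, that tool's usual base, was assumed. How background, dye bias and weak probes were handled is not given in the sources used here. Without intensities, no probe could be called above background. Array medians lay between -0.00347 and 0.00957, so the ratios are centred, while their direction is unknown.

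The value table had 43795 rows, of which 2 were not used (1 incomplete, 1 without a probe number). The annotation gave 1 symbol for 21790 probes, several for 0 and none for 22005 rows. Probes of a symbol were averaged to 15229 genes. Swapped arrays of a replicate number were taken as the same extracts and averaged. The 6 averages entered a single linear model with a coefficient for each comparison (lmFit and eBayes, limma 3.58.1, R 4.3.3). Two-sided p-values were adjusted by Benjamini-Hochberg over all genes, with a threshold of 0.05. Members and lists were chosen with earlier results of these data known. Values per replicate were given for 22 members: those with an unadjusted p under 0.05 in either comparison as deposited, and 15 measured of 16 core genes. ACAD11, ACADSB, ACSL4, PLIN1, the members named with the block and the further genes named with values were chosen after their values were seen.

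Deviations of equal replicate numbers correlated between the comparisons at 0.275, 0.386 and 0.366, each best with its own number. The numbers were therefore used as pairs in an alternative fit, a choice that rests on the same ratios which that fit tested. The labels do not say which pools are shared. In replicate 3 against 8CB the swapped arrays deviated oppositely. A simulated data set of 15229 genes was used to test the fit. It held independent normal noise with each gene's residual spread over both comparisons, and shifts placed in BL against 2CB. There limma called 67 of 100 genes shifted by 0.5, 85 of 100 shifted by 1 (log2) and 5 unshifted genes. The members' median absolute ratio against 2CB was 0.098 as deposited, so these counts do not tell how often ratios of that size would be called. Coordinates and sequences are left out because the array's genome build was not named. Software for figures was Python 3.11.15 with matplotlib 3.10.9.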

Additional observations from a re-analysis of the deposited data

Results flagged for a closer look

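CD36 and AGPAT2, listed with the further genes of lipid metabolism, had ratios on opposite sides of 0 in the comparisons, in all 3 replicates of each, as deposited. CD36, a fatty acid translocase of the plasma membrane, had -0.11, -0.03 and -0.23 against 2CB and 0.39, 0.35 and 0.32 against 8CB. The means were -0.12 ± 0.05 and 0.35 ± 0.05, and the difference was -0.475 (limma, adjusted p = 0.932). Turned by the labelled dyes, CD36 averaged 0.08 ± 0.04 for BL over 2CB and 0.03 ± 0.04 for BL over 8CB. AGPAT2, an acyltransferase on the way to triglycerides, had 0.21, 0.10 and 0.0060 against 2CB and -0.00072, -0.02 and -0.15 against 8CB, a difference of 0.161 (adjusted p = 0.932). Several of the AGPAT2 ratios lie close to 0. Neither difference passed the adjusted threshold.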

How the results depend on the processing

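Precision is limited by the few arrays, since 3 averaged ratios of amplified pools stood behind each comparison. Turned by the labelled dyes, members past the adjusted threshold numbered 4 against 2CB (8.51%, all genes 5.96%) and 2 against 8CB (4.26%, all genes 2.94%). Those with an unadjusted p under 0.05 numbered 15 (31.9%, all genes 28.3%) and 11 (23.4%, all genes 24%), and the median against 8CB was -0.034. CPT1C (-0.105), FABP1 (-0.0628), ACAT2 (0.0418 against 8CB) and FABP3 (-0.0904 against 8CB) then changed side. With arrays of BL in Cy5 alone, 5 members (10.6%, all genes 10.6%) passed the adjusted threshold against 2CB and 1 (2.13%, all genes 2.65%) against 8CB. The unadjusted one was passed by 15 (31.9%, all genes 30.8%) and 5 (10.6%, all genes 21.9%), and the median against 2CB was -0.0471. With arrays of the arrested class in Cy5 alone, 5 members against 8CB (10.6%, all genes 12.7%) and 3 in the difference of the comparisons had an unadjusted p under 0.05. The median against 2CB was then -0.0336, and ACAA2 turned to -0.663 against 2CB. The cause was not tested.

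With the replicate number as a block across the comparisons, 10 members (21.3%, all genes 9.4%) had an unadjusted p under 0.05 in the difference. With the block over 12 arrays and a dye coefficient 4 did so, and the block added no member past the adjusted threshold. Quantile normalization gave 3 members in the difference, the probe with the smallest p gave 2, and separate fits gave 1 against 8CB. Without 1 replicate, the members with an unadjusted p under 0.05 ranged from 3 to 9 against 2CB, from 1 to 3 against 8CB and from 0 to 6 in the difference, with 0 past the adjusted threshold. Turned by the labelled dyes, the adjusted counts without 1 replicate, an alternative chosen after seeing the data, ranged from 0 to 1 against 2CB and from 0 to 2 against 8CB. Over all 15229 genes they ranged from 0 to 222 and from 0 to 771. Counts given here without a share of all genes were not compared with one.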
